A study of Homo sapiens with 6 samples.

Results

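The RNA-binding motif (RBM) genes encode proteins that bind RNA mostly through an RNA recognition motif, a small fold that contacts a few bases at a time. Many act in the nucleus, where they help to choose splice sites, mark or degrade transcripts, or build ribosomes. The RBMS genes form a branch of their own, whose proteins bind single-stranded DNA and RNA and regulate the stability of messages. RBMS3 has been described in hepatic stellate cells as a protein that binds and stabilises an mRNA of a collagen-related transcription factor.

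The members were chosen by name and not by a cutoff on a value: protein-coding genes of GENCODE release 44, not on chromosome Y, present in the table, with a symbol of the form RBM and a digit, RBMS, RBMX or RBMXL. This gave 45 of the 32750 gene IDs in the table. The family was taken up with results of the same comparison already known, so its counts are descriptions and lend no support to a statement about the family as a whole. Of the 45 members, 41 passed the filter on low counts and were tested. RBM46 meets the name rule and was not analysed here.

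The RNA came from LX-2, an established line of human hepatic stellate cells, the cells that lay down collagen in liver fibrosis. The first group, the control, comprised 3 libraries from wild-type cells transfected with a non-targeting negative control siRNA. The other comprised 3 libraries from cells labelled as an ATP6AP1 transient knockdown, transfected with an siRNA against human ATP6AP1, an accessory subunit of the proton pump of lysosomes. The title of the series calls the cells activated, but the sources used here name no activating agent, siRNA sequence or time after transfection. Both groups rest on 1 cell line.

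Library totals ran from 15644464 to 19656533 counts. The level of ATP6AP1 (ENSG00000071553, chromosome X, 154428633 to 154436516, GRCh38) was 116, 117 and 129 CPM (counts per 1e6 after TMM scaling) under control siRNA and 143, 146 and 140 CPM in the libraries labelled ATP6AP1 siRNA. The target mRNA was thus not lower where the label says it was depleted (log2 fold change 0.25, SE 0.0608, edgeR adjusted p = 0.00425), and every direction below is that of the label only. Of the stellate markers, VIM and COL1A1 were abundant at mean levels of 4672 and 1012 CPM in control libraries, whereas DES, DCN and LUM were under 1 CPM in both groups and LRAT was not analysed here. Markers of hepatocytes, endothelial cells and leukocytes were mostly near 0, with summed levels of 8.38 to 11.6, 3.44 to 9.04 and 58 to 72.5 CPM per library, the last almost all CD68. Summed cholangiocyte markers were at 26.5 to 38.1 CPM, most of it SOX9. The summed endothelial markers were higher in the siRNA-labelled libraries (6.9 to 9.04 CPM, against 3.44 to 3.97 CPM), most of it KDR (2.40 ± 0.198 and 6.80 ± 1.2 CPM, SD, n = 3 each), while PECAM1, CDH5 and VWF stayed under 1 CPM. All 7 tested stellate markers were lowered, against 26.6% of all tested genes. Their list summed to 5580 to 6050 CPM in the control and 3200 to 3600 CPM in the siRNA-labelled libraries. The part of these markers in the RBM results was not tested. In bulk RNA a change in the make-up of the cells and a change in RNA per cell cannot be told apart.

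Most RBM genes that passed the test were higher in the siRNA-labelled libraries, and the 3 RBMS genes were lower. RBM15, which guides the m6A methylation machinery to RNA, was 2.48-fold higher, and the spliceosome-associated RBM48 and RBM22 were 2.06-fold and 1.97-fold higher. RBM4, RBM4B and RBM14, neighbours on chromosome 11, were 1.88-fold, 1.72-fold and 1.53-fold higher. RBMS3, RBMS1 and RBMS2 were 2.67-fold, 1.83-fold and 1.49-fold lower.

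In all, 22 of the 41 tested members were raised (53.7%, against 26.7% of the 15372 genes tested), 6 were lowered (14.6%, against 26.6%) and 13 did not pass. Among the 22 are RBM4 and the readthrough gene RBM14-RBM4, which share most of their transcript sequence and may not be separate rises. Either direction was called for 68.3% of the tested members and 53.3% of all genes. An absolute log2 fold change of at least 0.5 with a pass was seen in 15 members (36.6%, against 26.3% of all genes). All siRNA-labelled values lay above all control values in 22 members (53.7%, against 29.8%) and below them in 7 (17.1%, against 29.7%). The median log2 fold change was 0.24 over the tested members and -0.0043 over all tested genes. Among called members the median absolute log2 fold change was 0.55, close to the 0.49 of all called genes. The split moves with the scaling. Dropping the TMM factors and keeping raw library size, which shifts the median of all genes by 0.14 (log2), left 28 members raised and 3, the RBMS genes, lowered. The background moved as well, from 4110 to 5612 in the count of all genes raised and from 4083 to 2737 in that of all genes lowered.

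**Figure D1:**
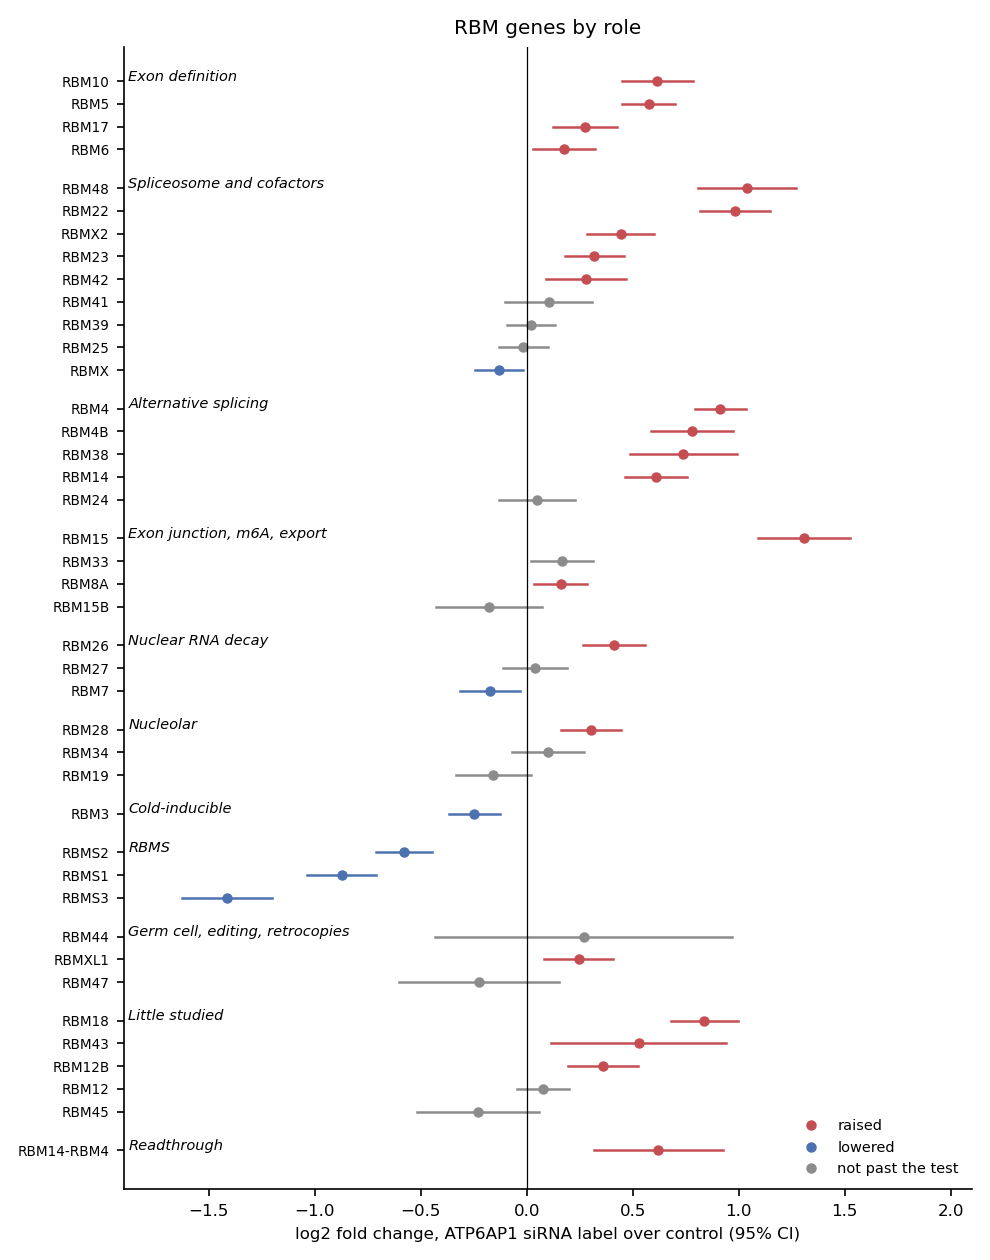
The log2 fold change (x axis, siRNA-labelled over control libraries) is shown with its 95% confidence interval for each of the 41 tested RBM genes, arranged by role. Red points are raised, blue lowered, and grey did not pass; RBMS1, RBMS2 and RBMS3 stand at the far left and RBM15 at the far right.

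Sequences before the start site are shown for the largest rise, for the neighbouring paralogs RBM4 and RBM4B, and for the largest fall, because these members anchor the comparison. They are the 250 bases before the RefSeq start site (build GRCh38.p14), 5′ to 3′ on the gene's strand, with capitals marking the letters CCAAT or, on the other strand, ATTGG, the box bound by the general factor NF-Y. The stretches are RBM15 at chr1:110339127-110339376 (plus strand), RBM4 at chr11:66638453-66638702 (plus strand), RBM4B at chr11:66677888-66678137 (minus strand) and RBMS3 at chr3:29280821-29281070 (plus strand). The RefSeq start used lies 36 bases inside the GENCODE gene for RBM4, 871 bases inside it for RBM15 and 706280 bases inside it for RBMS3, so the last is an internal start of that gene, and which start these cells used was not measured.
RBM15: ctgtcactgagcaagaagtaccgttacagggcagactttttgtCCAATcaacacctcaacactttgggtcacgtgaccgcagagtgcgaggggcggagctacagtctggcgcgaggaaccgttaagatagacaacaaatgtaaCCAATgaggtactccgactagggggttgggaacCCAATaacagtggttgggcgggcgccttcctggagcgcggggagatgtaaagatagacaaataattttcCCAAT
RBM4: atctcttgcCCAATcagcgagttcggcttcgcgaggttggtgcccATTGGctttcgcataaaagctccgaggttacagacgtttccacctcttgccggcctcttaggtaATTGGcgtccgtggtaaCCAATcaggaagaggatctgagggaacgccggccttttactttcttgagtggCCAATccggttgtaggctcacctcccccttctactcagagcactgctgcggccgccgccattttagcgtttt
RBM4B: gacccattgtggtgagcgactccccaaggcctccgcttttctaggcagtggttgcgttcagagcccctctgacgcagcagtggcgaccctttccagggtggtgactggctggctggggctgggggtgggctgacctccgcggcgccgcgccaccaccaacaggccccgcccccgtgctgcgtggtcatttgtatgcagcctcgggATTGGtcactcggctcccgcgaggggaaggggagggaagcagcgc
RBMS3: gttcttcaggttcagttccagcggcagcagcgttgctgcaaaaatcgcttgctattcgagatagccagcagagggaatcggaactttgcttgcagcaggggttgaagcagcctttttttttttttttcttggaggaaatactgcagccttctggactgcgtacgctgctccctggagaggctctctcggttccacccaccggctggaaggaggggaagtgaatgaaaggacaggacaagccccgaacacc

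The box occurs 4 times in the stretch of RBM15, 5 times in that of RBM4 and 1 time in that of RBM4B, and it is not among the letters of the RBMS3 stretch. RefSeq windows of 300 bases (250 before the start and 50 after) were matched for 41 of the 45 members. The box, on either strand, was in 14 of the 19 windows of raised members and in 2 of the 6 of lowered members. RBM14 and RBM14-RBM4, both among the 19, share the GENCODE start 66616626, so their windows may not be separate promoters. It was in 36.9% of the 10435 windows of tested protein-coding genes, in 42.1% of those of raised genes, in 33.4% of those of lowered genes, and in 35.7% of all 27305 windows. The ETS-type letters CCGGAA were in 6 of 19 windows of raised members, against 36.8% of those of all raised genes, and the GC box GGGCGG in 11 of 19, against 69.8%. The other letters searched, on both strands, were the TATA box TATAAA, the cAMP response element TGACGTCA, the E-box CACGTG, the AP-1 site TGANTCA and the TEAD-type letters GGAATG, each in at most 4 of the 19. Of all these sets of letters, CCAAT, the only one marked above, had the largest share among raised members in these same data. A match is a description and not a measured binding site.

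The RBMS genes were lower in every siRNA-labelled library than in any control library. RBMS3 (ENSG00000144642, chromosome 3, 28574791 to 30010391) was at 27.6, 25.8 and 29.5 CPM in the control libraries and at 9.20, 10.6 and 11.3 CPM in the siRNA-labelled ones. The groups are far apart, with a fold of 2.67 downward (95% confidence interval 2.30 to 3.09, log2 fold change -1.42, SE 0.0983, edgeR adjusted p = 1.49e-07), in the lowest 0.794% of all tested genes. RBMS1 (ENSG00000153250, chromosome 2, 160272151 to 160493807), first described as a binding protein of MYC regulatory DNA, was at 35.3, 37.1 and 34.3 CPM against 20.1, 19.2 and 19.0 CPM. It was 1.83-fold lower (1.64 to 2.05, edgeR adjusted p = 9.07e-07). RBMS2 (ENSG00000076067, chromosome 12), a close relative, was at 63.9, 66.8 and 67.1 CPM against 43.9, 44.4 and 44.1 CPM, a narrow band in both groups and 1.49-fold lower (1.36 to 1.64, edgeR adjusted p = 5.62e-06).

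RBMS3 and RBMS1 are long, with spans of 1440 and 222 kb, and RBMS2 spans 74.4 kb. The longest protein-coding genes were lower in these libraries. Among protein-coding genes split into equal bins by span, the longest bin had a median log2 fold change of -0.40. The bin around 80.9 kb, near the span of RBMS2, had one of -0.025. The bin around 13.8 kb had the highest median, 0.14, and the shortest bin one of -0.030, so the fall with span was not steady. Once each library's trend on gene span had been removed, the log2 fold changes of RBMS3, RBMS1 and RBMS2 were -0.57, -0.59 and -0.58, and all 3 still passed. RBMS3 lies far beyond the spans of most genes, where few genes support the trend. Over the 41 tested members the log2 fold change fell with log span (Pearson r = -0.579, Spearman rho = -0.383, as a description over genes that share the same 6 libraries). That fall was not steady either. The median was 0.16 over the 3 members in the bin around 126 kb. It was -0.87 over the 3 in the longest bin, RBMS3 and RBMS1 among them. The median span was 28.4 kb over tested members and 30.8 kb over all tested genes. With the span trend removed, the members' median log2 fold change was 0.17, with 18 raised and 7 lowered. The same step gave 3645 for all genes raised and 4316 for all genes lowered.

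**Figure D2:**
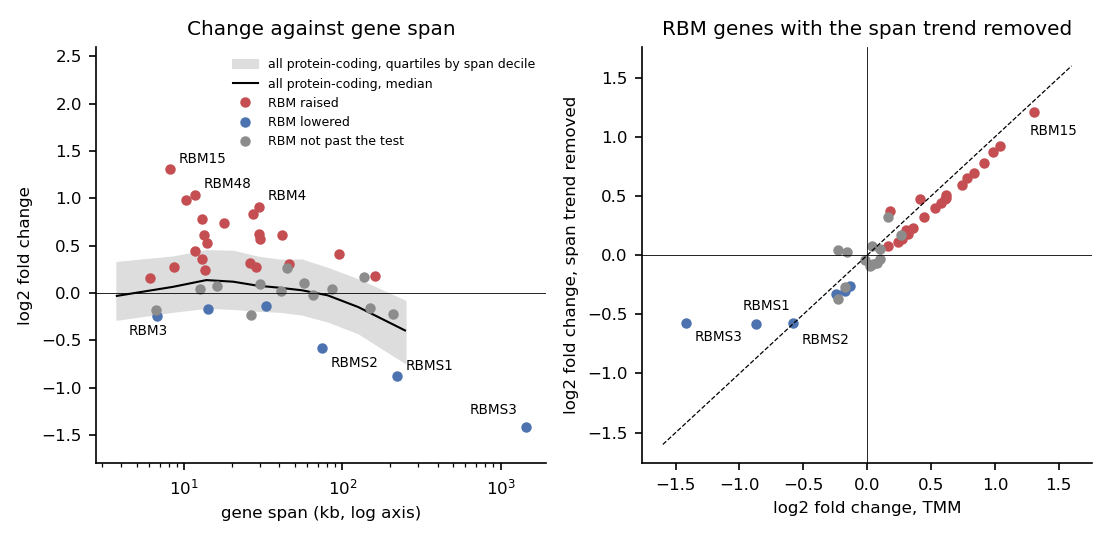
Left, the log2 fold change of each tested RBM gene against its span in kb (log axis), over the median (line) and quartiles (grey) of all tested protein-coding genes by decile of span. Right, the log2 fold change of the same genes with TMM scaling (x axis) and with the span trend removed (y axis); the dashed line marks equal values, and RBMS3 moves from -1.42 to -0.57.

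Members of the machinery that marks exons for methylation, export or surveillance differed among themselves. RBM15 (ENSG00000162775, chromosome 1, 110338506 to 110346681) was at 10.4, 11.7 and 11.6 CPM in the control libraries and at 30.6, 28.3 and 24.8 CPM in the siRNA-labelled ones. Every siRNA-labelled value was far above the highest control value (log2 fold change 1.31, SE 0.101, edgeR adjusted p = 3.40e-07). Its paralog RBM15B, which shares the role of recruiting the methylation complex, stood at -0.18 on the log2 scale, not past the test (edgeR adjusted p = 0.216), with wide and overlapping values of 90.4 to 116 and 73.1 to 103 CPM. Per kb of exon, RBM15 stood at 0.163, 0.162 and 0.142 of RBM15B in the control libraries and at 0.421, 0.413 and 0.482 in the siRNA-labelled ones. RBM15 thus stayed the less abundant of them in every library. RBM8A (Y14), a core subunit of the exon junction complex, was 1.12-fold higher (126 ± 4.32 and 141 ± 4.25 CPM, SD, n = 3 each; edgeR adjusted p = 0.0326), a call lost under 8 of 17 alternatives. RBM33, an m6A reader that works with the demethylase ALKBH5, did not pass (44.1 ± 1.63 and 49.4 ± 2.14 CPM, edgeR adjusted p = 0.0564) and did under 6 alternatives.

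The partners of these members were read from the same fit, in which 26.7% of all tested genes were raised and 26.6% lowered. Of 6 subunits of the m6A writer complex, 4 were raised, none was lowered, and METTL3 and ZC3H13 did not pass. CBLL1, its ubiquitin ligase subunit, went from 32.3 ± 0.978 to 68.7 ± 2.08 CPM (SD, n = 3 each), a log2 fold change of 1.09. METTL14 had a log2 fold change of 0.71 and WTAP, the scaffold that RBM15 binds, one of 0.31. With the gene span trend removed, 5 subunits of the writer were raised and 1 lowered, as with the exon length and GC trend removed. Against a null of a 1.2-fold change, 2 of its subunits were raised and 0 lowered. Of 14 genes of the exon junction complex and nonsense-mediated decay, 8 were raised, SMG6 and UPF2 were lowered and 4 did not pass; UPF3B was at 0.71, EIF4A3 at 0.46 and CASC3 at 0.45 (log2 fold changes). On raw library size 11 of these were raised and none lowered. The 2 lowered calls were not stable: 0 were left without control replicate 1, control replicate 3 or siRNA-labelled replicate 2 and with the span trend removed, and 1 without any 1 of the other libraries.

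All 4 members that act on exon definition and the 3′ splice site were raised, against 26.7% of all tested genes. RBM10 (ENSG00000182872, chromosome X, 47145221 to 47186813), a splicing regulator that promotes exon skipping and is mutated in lung cancers, was at 72.5, 76.0 and 90.0 CPM against 127, 120 and 119 CPM. Its paralog RBM5, which regulates the exon choice of apoptosis genes, was at 84.5, 85.8 and 81.6 CPM against 129, 124 and 122 CPM. They rose 1.53-fold (95% confidence interval 1.36 to 1.72) and 1.49-fold (1.37 to 1.62), with edgeR adjusted p = 2.47e-05 and 3.22e-06. The ratio of RBM5 to RBM10 per kb of exon, 0.364 ± 0.0478 and 0.351 ± 0.00328 (SD, n = 3 each), overlapped between the groups. It is no measure of relative abundance. Merged exons are 10.4 kb for RBM5 and 3.54 kb for RBM10, whereas their canonical transcripts have 3177 and 3397 bases. RBM17 (SPF45), a factor of the branch site stage of splicing, was 1.21-fold higher (69.1 ± 2.68 to 83.5 ± 6.38 CPM, edgeR adjusted p = 0.00491) and did not pass with the span trend removed (0.123). RBM6, which overlaps RBM5 on the same strand of chromosome 3, was 1.13-fold higher (edgeR adjusted p = 0.0421), a call lost under 8 of 17 alternatives. The ratio of RBM5 to RBM6 per kb went from 0.938 ± 0.0297 to 1.24 ± 0.0845 without overlap between the groups. Of the 50-base windows of the RBM5 transcript, 13% occur in transcripts of other genes, most often RBM6. The division of counts between RBM5 and RBM6 is therefore uncertain.

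Among spliceosome components and their cofactors, 5 of 9 were raised, RBMX was lowered and 3 did not pass. The shares over all tested genes were 26.7% raised and 26.6% lowered. RBM22 (ENSG00000086589, chromosome 5, 150690792 to 150701077), which contacts the active site RNA of the spliceosome, was at 38.6, 37.6 and 39.9 CPM against 68.4, 79.1 and 81.7 CPM. The control values lie close together, and all siRNA-labelled values are well above them (1.97-fold, 95% confidence interval 1.76 to 2.22, edgeR adjusted p = 3.90e-07). RBM48 (ENSG00000127993, chromosome 7, 92528773 to 92540481), a factor of the minor spliceosome, was at 14.6, 16.7 and 12.1 CPM against 28.8, 28.9 and 31.8 CPM. It rose 2.06-fold (1.75 to 2.42, edgeR adjusted p = 4.09e-06). RBMX2, a component of the activated spliceosome, was 1.36-fold higher (28.6 ± 0.320 to 38.8 ± 2.39 CPM), and RBM23 was higher by 0.32 on the log2 scale (65.7 ± 3.90 to 82.0 ± 0.918 CPM; edgeR adjusted p = 0.000227 and 0.000936).

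The abundant members of this group moved little. RBM42, an RNA-binding protein of the spliceosome's tri-snRNP, was at 104, 115 and 130 CPM against 150, 148 and 125 CPM; the groups overlap, and the call (1.21-fold, edgeR adjusted p = 0.0172) was lost under 7 of 17 alternatives. RBM39 (CAPER-alpha), a splicing cofactor and the target of sulfonamide degraders, was at 336, 332 and 322 CPM against 335, 335 and 333 CPM, with a fold change interval of 0.938 to 1.09 (edgeR adjusted p = 0.778). RBM39 therefore stood at 5.89 ± 0.344 times its paralog RBM23 per kb in the control libraries and at 4.78 ± 0.0649 times in the others, without overlap. RBM25 was as tight, with 118 to 119 CPM in the control and 117 to 118 CPM in the siRNA-labelled libraries (edgeR adjusted p = 0.820), and RBM41, a minor spliceosome protein, did not pass (adjusted p = 0.380). RBMX (hnRNP G), which binds nascent RNA and chromatin, was at 247, 258 and 254 CPM against 228, 230 and 234 CPM and was lowered without overlap (edgeR adjusted p = 0.0475). Its log2 fold change of -0.13 became 0.0037 with library size alone and lost its call under 9 other alternatives. Of the 50-base windows of the RBMX transcript, 36.7% occur in transcripts of other genes, most often RBMXL1, so its counts and those of RBMXL1 (1.18-fold higher, edgeR adjusted p = 0.0153) are uncertain.

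Of the partner lists, 4 of 11 minor spliceosome genes were raised and ZCRB1 was lowered, with ZRSR2 at a log2 fold change of 0.86 and SCNM1 at 0.78. Of 16 factors of the branch site stage, 5 were raised, 3 lowered (DHX15, SF3B5 and SF3B6) and 8 did not pass, and SF3A1 was at 0.74. For all lists of this paragraph, the shares over all tested genes were 26.7% raised and 26.6% lowered. On raw library size the branch site list had 10 raised and none lowered, and the minor spliceosome list 5 raised and none lowered. Once the span trend was removed, the branch site list had 3 raised and 4 lowered. The hnRNP proteins, abundant RNA-binding proteins that coat new transcripts, went the other way: 15 of 24 were lowered and 3 raised (HNRNPH1, HNRNPF and HNRNPAB), with a median log2 fold change of -0.24. HNRNPA1 went from 1873 ± 85.4 to 1129 ± 64.5 CPM, HNRNPA2B1 from 1012 ± 27.9 to 643 ± 35.7 CPM (SD, n = 3 each) and HNRNPH3 was at -0.54 (log2 fold change). Without TMM factors 9 hnRNP genes were lowered and 6 raised. With the span trend removed, 18 of these genes were lowered and 1 raised. Other proteins with RNA-binding folds also fell more often than they rose, 12 against 7 of 25 tested, with QKI at -0.71, MBNL2 at -1.05 and MBNL1 at -0.73. Without TMM factors 9 of them were lowered and 9 raised, and with the span trend removed 10 were lowered and 3 raised. The difference between these lists and the RBM genes was not tested.

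**Figure D3:**
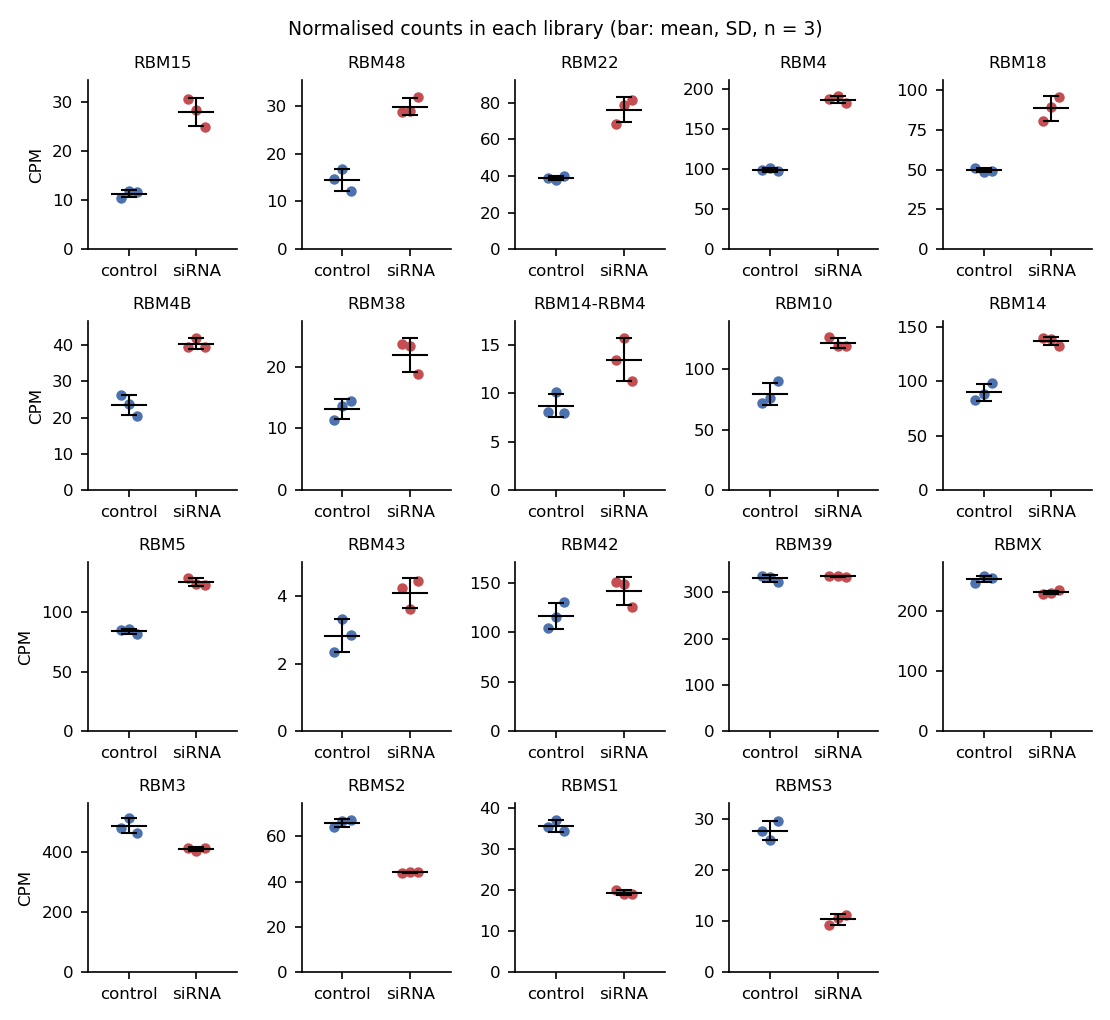
Normalised counts (CPM, axes from 0) in each of the 3 control (blue) and 3 siRNA-labelled (red) libraries, with the mean and SD as black bars, for the 15 RBM genes that passed with an absolute log2 fold change of at least 0.5 and the 4 other members among the 5 highest per kb of exon. The groups separate in each panel except RBM42 and RBM39.

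The regulators of alternative splicing include a cluster on chromosome 11 in which RBM14, RBM14-RBM4, RBM4 and RBM4B lie within 61.3 kb (66616626 to 66677887, GRCh38). RBM4 (ENSG00000173933), which regulates exon choice in muscle and nerve cells and translation under stress, was at 98.5, 102 and 97.3 CPM against 187, 191 and 183 CPM. It rose 1.88-fold (95% confidence interval 1.73 to 2.05, edgeR adjusted p = 5.49e-08), the lowest adjusted p of the family. RBM4B (ENSG00000173914), its paralog on the opposite strand, was at 26.1, 23.8 and 20.4 CPM against 39.5, 42.0 and 39.4 CPM, 1.72-fold higher (edgeR adjusted p = 1.05e-05). RBM4 stood at 2.80 ± 0.324 times RBM4B per kb of exon in the control libraries. In the others it stood at 3.04 ± 0.0622 times, with overlap. Of the exon bases of RBM4B, 13.7% lie under exons on the other strand, most of them of RBM4. The strand setting is unknown, so reads there cannot be told apart, and how far the paralogs rose separately was not tested. RBM14 (ENSG00000239306), a coactivator found in paraspeckles, was at 83.1, 88.5 and 98.1 CPM against 140, 139 and 133 CPM, 1.53-fold higher (edgeR adjusted p = 8.29e-06). The readthrough gene RBM14-RBM4 was at 8.11, 10.1 and 7.94 CPM against 13.4, 15.7 and 11.3 CPM (edgeR adjusted p = 0.00234). Of the windows of RBM4, 96.9% occur in RBM14-RBM4 or other transcripts and 97.0% of those of RBM14-RBM4 in RBM4, so the division of counts between these genes is uncertain. Of the 16 other tested genes within 250 kb of the cluster, 6 were raised, among them BBS1 and RCE1 (log2 fold changes 1.1 and 0.86). C11orf80 and LRFN4 were lowered, and 8 did not pass. The 4 named here were chosen after their values were seen. Over all tested genes 26.7% were raised and 26.6% lowered.

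Outside the cluster, RBM38 (RNPC1), a p53 target that stabilises the mRNA of p21 and other genes, was at 11.3, 13.6 and 14.5 CPM against 23.7, 23.4 and 18.8 CPM. It rose 1.67-fold (1.40 to 1.99, edgeR adjusted p = 0.000163), with the groups clear of each other. RBM24, its closest paralog and a regulator of muscle splicing, was at 21.9 ± 1.04 and 22.6 ± 1.45 CPM and did not pass (fold change interval 0.912 to 1.17, edgeR adjusted p = 0.660). The tissue-restricted RBM11 and RBM20 were not tested: RBM11, a regulator in brain and testis, had 1, 0 and 0 control counts against 9, 5 and 8 siRNA-labelled ones, and RBM20, a regulator of titin splicing in heart, had 3, 1 and 1 against 4, 4 and 8.

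Of the adaptors that bring nuclear RNA to the exosome, RBM26 was raised, RBM7 was lowered and RBM27 did not pass. RBM26 was at 56.4 ± 1.86 CPM in control and 74.8 ± 4.78 CPM in siRNA-labelled libraries, 1.33-fold higher (edgeR adjusted p = 0.000218). Its paralog RBM27 was at 40.0 ± 0.363 and 41.0 ± 2.25 CPM (edgeR adjusted p = 0.672), so that the ratio of RBM26 to RBM27 per kb went from 0.928 ± 0.0288 to 1.2 ± 0.0397 without overlap. RBM27 is uncertain, since 44.5% of its windows occur in other transcripts, most often those of an overlapping gene on the same strand. RBM7, the RNA-binding subunit of the NEXT complex, was at 79.7 ± 4.44 CPM in control and 70.6 ± 3.40 CPM in siRNA-labelled libraries, 1.13-fold lower (edgeR adjusted p = 0.0419), a call lost under 10 of 17 alternatives, among them library size alone. Of 14 exosome and adaptor genes, 5 were raised, MTREX and EXOSC7 were lowered and 7 did not pass; ZCCHC8, the scaffold of NEXT, was at 0.73 and DIS3 at 0.57 (log2 fold changes). The balance of this list turned on trend removal, to 5 raised and 6 lowered for gene span and 5 raised and 5 lowered for exon length and GC. Without trend removal, 26.7% of all tested genes were raised and 26.6% lowered.

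**Figure D4:**
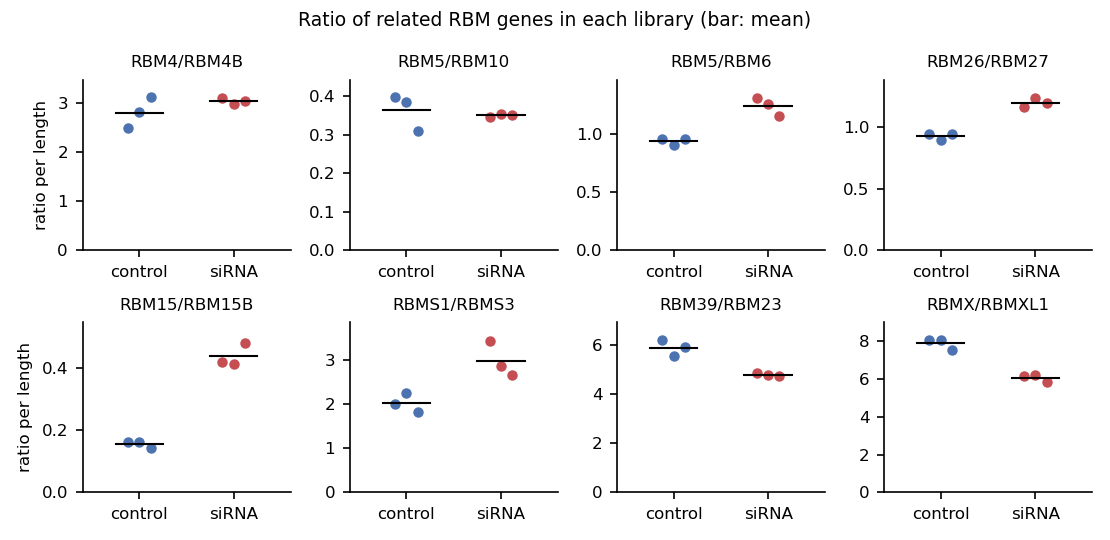
Ratio of the CPM per kb of exon of related RBM genes in each library (y axis from 0; black bar, mean of 3). RBM15/RBM15B, RBM26/RBM27, RBM5/RBM6 and RBMS1/RBMS3 are higher and RBM39/RBM23 and RBMX/RBMXL1 lower in the siRNA-labelled libraries, without overlap, whereas RBM4/RBM4B and RBM5/RBM10 overlap.

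The nucleolar members, which take part in ribosome assembly, changed little. RBM28 was 1.23-fold higher (52.5 ± 2.01 and 64.8 ± 3.10 CPM; edgeR adjusted p = 0.00173). RBM19 and RBM34 did not pass (edgeR adjusted p = 0.119 and 0.299), and 79.7% of the windows of RBM34 occur in other transcripts, most often of ARID4B. Of 21 other genes of ribosomal RNA processing, 9 were raised, 5 lowered and 7 did not pass, with NOP56 at 0.63, RRP12 at 0.71 and WDR43 at -0.54 (log2 fold changes). After removal of the span trend 5 were raised and 6 lowered. Without trend removal, 26.7% of all tested genes were raised and 26.6% lowered.

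RBM3 is induced by mild cold and known to protect synapses and translation. It was the highest member per kb of merged exon, at 83.3 CPM per kb in control libraries. RBM42 followed at 52.8 and RBMX at 43.0. This order depends on the length used. Merged exons are 5.83 kb for RBM3 and 5.88 kb for RBMX, whereas their canonical transcripts have 4298 and 2012 bases. RBM3 was at 480, 513 and 463 CPM against 412, 401 and 414 CPM, 1.19-fold lower without overlap (95% confidence interval 1.09 to 1.29, edgeR adjusted p = 0.00234). With library size alone it did not pass (log2 fold change -0.11, adjusted p = 0.104). CIRBP, the other cold-inducible RNA-binding protein, singled out here after its value was seen, was raised by 0.41 on the log2 scale (edgeR adjusted p = 0.000717), with group means of 100 ± 9.42 and 133 ± 10.1 CPM.

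Among the little studied members, RBM18 was at 51.2, 48.7 and 49.0 CPM against 80.6, 89.3 and 95.9 CPM, 1.79-fold higher (1.6 to 1.99, edgeR adjusted p = 9.69e-07). RBM12B was 1.28-fold higher (33.4 ± 1.98 to 42.9 ± 2.72 CPM, edgeR adjusted p = 0.00157), with 46.6% of its exon bases under exons of genes on the other strand, most of them of CIBAR1. RBM43 was at 2.35, 3.32 and 2.84 CPM against 4.24, 3.62 and 4.45 CPM; its call (edgeR adjusted p = 0.0329) rests on 40 to 83 counts a library and was lost under 9 of 16 alternatives. RBM12, with 8.58% of its exon bases inside exons of CPNE1 or other genes on its strand, and RBM45 did not pass (edgeR adjusted p = 0.286 and 0.161). RBM47, a cofactor of C-to-U editing with low levels of 3.32 to 4.77 CPM, and RBM44, a germ cell gene at about 1 CPM, did not pass either (edgeR adjusted p = 0.298 and 0.511). The RBMX retrocopies RBMXL2 and RBMXL3 were not tested, with at most 2 and 1 counts in a library.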

How the data were processed

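The authors deposited a table of estimated counts per Ensembl gene for 6 libraries, which the labels call independent biological replicates. Per the submitters' processing notes, FastQC, Trimmomatic, HISAT2, featureCounts and DESeq2 were used with GRCh38/hg38. The sources used here do not give versions, the annotation release, the strand setting or the handling of multimapped reads. Between 12.3% and 13.9% of the values in a library, zeros included, were not whole, so counts were rounded. Without a known strand setting, reads of a gene and its antisense partner cannot be told apart.

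Gene names, biotypes and spans came from GENCODE v44, and promoters from RefSeq. Genes were filtered with filterByExpr, scaled by TMM and compared with the two-sided quasi-likelihood test of edgeR 4.0.16 (R 4.3.3), with Benjamini-Hochberg adjustment over all 15372 tested genes and a threshold of 0.05; raised and lowered mean passing it. The method was tested on simulated data. CPM use TMM-scaled library sizes. Levels between genes are CPM per kb of merged exons, so ratios and ranks between genes depend on the transcripts annotated. Library values are printed for members that passed with an absolute log2 fold change of at least 0.5 and for the 5 highest per kb. Up to 3 partner genes per list are named by lowest adjusted p, plus some that went against their list or did not pass. Members and lists were chosen with earlier results of these data known. Alternatives used DESeq2 1.42.0, limma 3.58.1 (voom), other scalings and filters, a fold threshold, span or composition trends, a replicate block and each library left out.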

Additional observations from a re-analysis of the deposited data

How the results depend on the processing

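Of the 28 called RBM genes, 16 kept their call and direction under every alternative and 12 lost the call under at least 1; 9 others passed under at least 1. Against a null of a 1.2-fold change (glmTreat), 13 members were raised and 3 lowered, with 2386 in the count of all genes raised and 2250 in that of all genes lowered, by construction a stricter test. There ATP6AP1, at a log2 fold change of 0.25, had an adjusted p of 0.591; with the span trend removed it was at 0.15 (adjusted p = 0.0624). With library size alone 3 members were lowered, with 2737 for all genes lowered and 5612 for all genes raised, and RBMX turned to 0.0037; the cause was not tested. Leaving out 1 library at a time gave 19 to 20 members raised and 4 to 6 lowered, 3429 to 4077 and 3350 to 4010 of all genes, and 0.23 to 0.31 for ATP6AP1. Deviations of same-numbered libraries correlated at -0.0879, -0.0291 and -0.102, and those of unlike-numbered libraries at -0.01 to 0.0974. The deviations were centred within each group of 3, so these values constrain each other. They cannot decide whether the libraries were prepared in pairs. With the replicate block, 18 members were raised and 4 lowered, 3619 and 3576 of all genes, with ATP6AP1 at 0.25. With 3 libraries a group, genes at a few counts, such as RBM11 and RBM20, could not be tested.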
